A study of Mus musculus with 6 samples.

Results

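The effect described here is the one that high-fat diet livers shared in both of their regions: 4 of the 6 libraries in the series came from hepatic stellate cells of high-fat diet livers, and they were set against the other 2, from normal diet livers. The 4 are the non-tumour and the tumour region, each isolated by perfusion at 37 or at 6 degrees, and the normal diet libraries were made at the same pair of temperatures. All came from wild type C57BL/6 mice aged 35 weeks, and all 6 are therefore alike in strain, genotype and age and differ in diet, region and temperature. Cells negative for CD31 (an endothelial surface protein) and CD45.2 (a blood cell surface protein) and positive for CD49a were sorted, per the labels' protocols. No source used here gives how the tumours arose, how long the diet lasted or how many animals or livers went into a library, so the p-values measure the spread of these 6 libraries only, which may be technical. No group had a second library. Diet and region are also tied, since a region was taken only from high-fat livers, and a diet effect cannot be told apart from an effect of bearing a tumour elsewhere in the same liver. Values below are FPKM, the fragments of a gene divided by transcript length in kilobases and by library size, and each pair of values is given with the 37-degree library first and the 6-degree library after it.

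Hepatic stellate cells lie between the hepatocytes and the sinusoidal endothelium, store vitamin A as retinyl esters and secrete a thin matrix and many plasma proteins of the innate immune system. In a chronically injured liver they can become myofibroblasts, which divide, contract and lay down fibrillar collagen. They also make signals for their neighbours, among them R-spondin 3 and Wnt ligands for hepatocytes near the central vein, growth factor binding proteins and chemokines.

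The libraries held an estimated 17000000 to 23600000 fragments, at which 1 fragment on a transcript of 1 kb is worth 0.0424 to 0.0589 FPKM. The stellate cell list (24 genes) summed to between 26744 and 41857 FPKM and was the highest of the cell type marker lists in every library, while Ddx3y, a Y-linked gene, was present in all 6 and Xist was at or near 0. Itga1, which encodes the CD49a used in the sort, measured 90.5 and 87.6 FPKM in the normal diet libraries, 204 and 161 in the non-tumour libraries and 179 and 172 in the tumour libraries, and since it selected the cells its difference is no finding. Markers of sorted-out cells remained at levels that differ with temperature and region, and they are given at the end of the results beside the genes they move with.

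Of 11556 genes tested, 1241 (10.7%) differed between the high-fat regions and normal diet at an adjusted p under 0.05 (limma on log2(FPKM + 1), source and temperature as terms, Benjamini-Hochberg). Of these, 759 rose (6.57% of the genes tested) and 482 fell (4.17%), and 298 of the raised and 225 of the lowered genes changed by at least 1 on the log2 scale. Without any test, 1790 genes (15.5%) lay above both normal diet libraries in all 4 high-fat libraries, and 1682 (14.6%) lay below both. An exact permutation of 4 against 2 libraries has 15 splits and cannot give a two-sided p under 0.133, so the range is used as a description. Genes that met both criteria numbered 526 in the upward direction (69.3% of those that rose) and 469 downward (97.3% of those that fell). In 51 genes the lowest high-fat library stood at least 1 log2 unit above the higher normal diet library, and in 78 the highest stood at least that far below the lower one. Quantile normalization moved the balance to 529 raised and 535 lowered genes, with 1278 above and 2042 below the normal diet range. Leaving out 1 library changed the count by more than 1.5 times for 4 of them: 265 genes passed without the 37-degree normal diet library, 379 without the 6-degree one, 542 without the 37-degree and 359 without the 6-degree non-tumour library.

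The 37- and 6-degree libraries share no library, so the temperatures can be set beside each other, although the labels do not say whether they share animals. Of 230 genes that were at least 1 log2 unit higher in both regions than in normal diet at 37 degrees, 210 (91.3%) were also higher in both regions at 6 degrees, compared with 44.0% of all genes tested. Of 212 that were lower by that much at 37 degrees, 205 (96.7%) were lower at 6 degrees, compared with 35.4% of all genes. In the other direction, 183 of 216 genes (84.7%) raised at 6 degrees and 193 of 238 (81.1%) lowered there kept their sign at 37 degrees, beside 37.8% and 33.8% of all genes. The differences at the temperatures correlated across the 11556 genes with Pearson's r of 0.68 and Spearman's rho of 0.57. Genes are not independent replicates, and the value is a description. Whether the diet difference depended on temperature could not be settled, since normal diet had 1 library at each temperature. A separate fit with that term took the 2 regions as replicates of high-fat diet. Its 2 residual degrees of freedom came from differences between the regions only, so no conclusion is drawn from it. Temperature differences were set beside these calls: 475 of the 526 raised genes (90.3%) and 384 of the 469 lowered genes (81.9%) differed by less than 0.5 log2 units between 6 and 37 degrees, beside 89.2% of all genes.

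**Figure D1:**
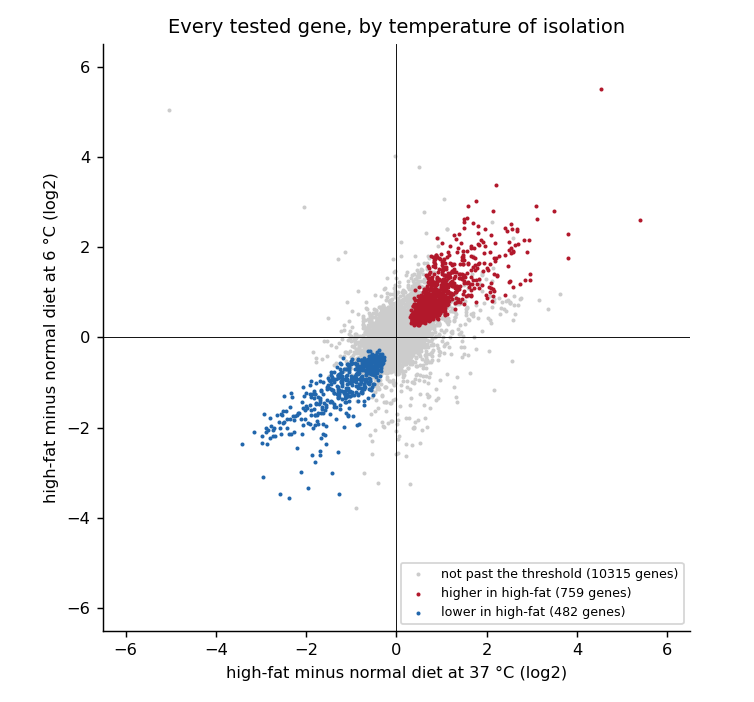
Difference between the mean of the high-fat libraries and the normal diet library at 37 °C (horizontal axis, log2) and at 6 °C (vertical axis, log2), 1 point for each of 11556 genes. The 759 genes that rose (red) and the 482 that fell (blue) lie in the quadrants where both temperatures have the same sign.

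Among the genes with the largest rises and a wide, steady gap, the calcium-activated chloride channel regulator Clca3a1 measured 53.1 and 45.2 FPKM in the normal diet libraries, 322 and 275 in the non-tumour libraries and 299.9 and 249 in the tumour libraries. It was 5.83-fold higher on the mean and rose by 2.52 ± 0.07 (SE, log2; adjusted p = 0.00131). The gene lies at chr3:144729677-144760977 (GRCm38, minus strand) beside close copies, so its share of the fragments is uncertain. Zbtb8b, a zinc finger protein, stood in normal diet cells at 1.04 and 1.015 FPKM and reached 11.5 to 25.4 in the high-fat libraries (log2 change 3.14 ± 0.23, adjusted p = 0.00457). Olfm2, a secreted olfactomedin protein that takes part in smooth muscle differentiation, went from 2.16 and 1.73 to between 13.3 and 28.3 FPKM (2.87 ± 0.15). The most raised, most lowered and widest-gap genes named here were chosen from genes outside the normal diet range. That the diets did not overlap for these 3 genes is therefore a condition of the choice and no finding. Rgs4, which shortens the signal of G protein-coupled receptors, measured 70.2 and 52.7 FPKM in the normal diet libraries, 400.2 and 211 in the non-tumour libraries and 478 and 233 in the tumour libraries, and its 37-degree libraries were the higher ones within each source (log2 change 2.34 ± 0.14, adjusted p = 0.00447). Rgs2, a relative of the same function, rose by 2.51 ± 0.27. The pseudokinase Trib1 rose by 2.49 ± 0.43 (adjusted p = 0.0274), and the 37-degree tumour library, at 87.4 FPKM, lay far above the other high-fat libraries, which held 18.9 to 21.9. Adam23, Cadm1 and Shisa2, a cell-surface adhesion partner of integrins, an immunoglobulin-family adhesion molecule and a modulator of Wnt and FGF receptors in the endoplasmic reticulum, rose by 2.30 ± 0.12, 2.37 ± 0.17 and 2.40 ± 0.19.

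In some genes the high-fat libraries differed little among themselves. Mest, an imprinted gene of the mesoderm, measured 42.9 and 38.2 FPKM in the normal diet libraries, 159 and 159 in the non-tumour libraries and 149 and 166 in the tumour libraries, and its 4 high-fat values lay within 149 to 166 FPKM. Ankrd55 held 6.59 and 7.43 FPKM in normal diet cells and 29.8 to 31.7 in high-fat cells. Both rose by almost the same amount, 1.94 ± 0.09 and 1.98 ± 0.09 (adjusted p = 0.00349 and 0.00349). Serpina3n, a secreted protease inhibitor of the acute phase, was higher in the tumour libraries at 25.9 and 21.8 FPKM than in the non-tumour libraries at 10.6 and 8.80, and both lay above the normal diet values of 1.32 and 2.33. Serpina3 genes are a cluster of close copies, so how fragments were divided among them is uncertain.

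**Figure D2:**
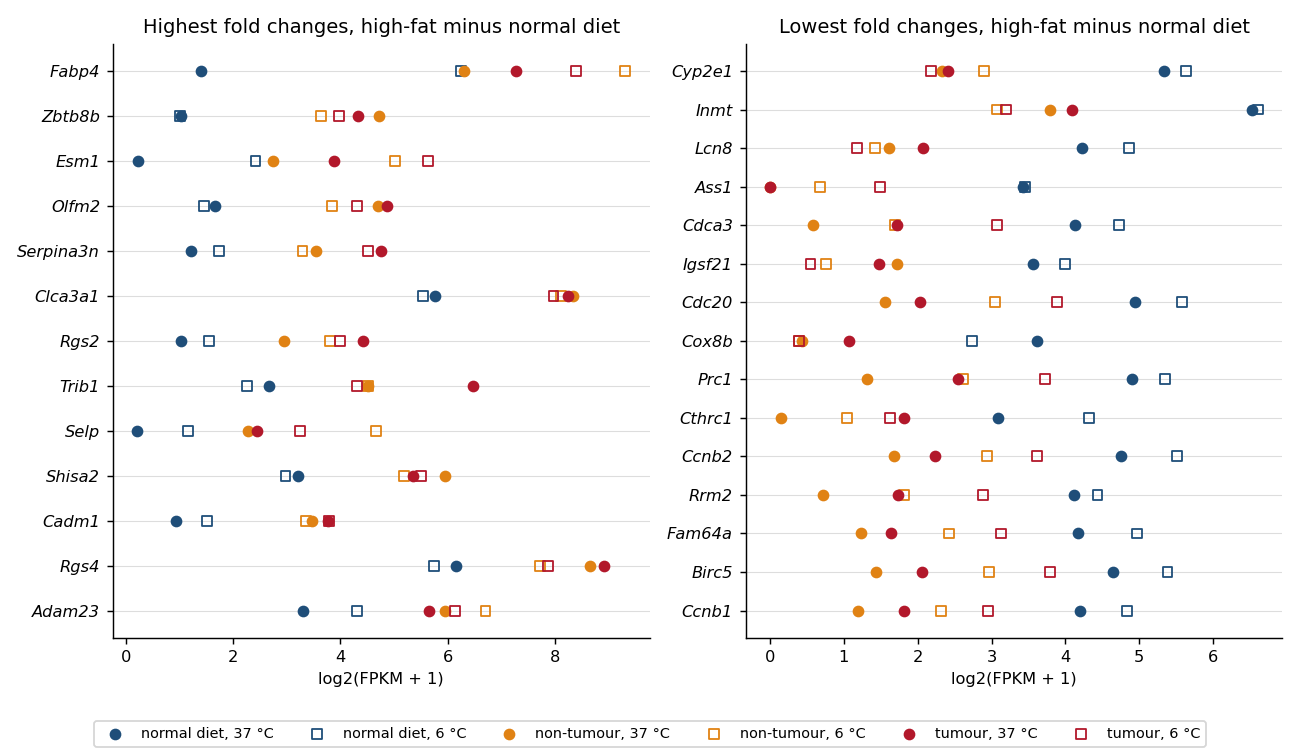
Level of each gene in the 6 libraries as log2(FPKM + 1) (horizontal axis), for the genes with the highest (left) and lowest (right) fold changes among those that pass and lie outside the normal diet range, apart from symbols without a gene name. Colours are sources and shapes are temperatures; no blue symbol lies within the span of the orange and red symbols of its row.

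The most lowered genes included several enzymes of small-molecule metabolism. Cyp2e1, a cytochrome that oxidizes ethanol and fatty acids, measured 39.4 and 48.7 FPKM in the normal diet libraries, 4.02 and 6.45 in the non-tumour libraries and 4.34 and 3.53 in the tumour libraries, a 9.60-fold lower mean (log2 change -3.03 ± 0.18, adjusted p = 0.00447). Inmt, which methylates amines, measured 91.0 and 96.6 FPKM in the normal diet libraries, 12.8 and 7.41 in the non-tumour libraries and 16.1 and 8.18 in the tumour libraries and had an 8.44-fold lower mean (-3.03 ± 0.21, adjusted p = 0.00457). Ass1, the argininosuccinate synthase of arginine and urea synthesis, stood at 9.76 and 9.99 FPKM in normal diet cells, was listed at 0 in both 37-degree high-fat libraries and reached 0.601 and 1.82 FPKM in the 6-degree ones. Cdo1, which begins cysteine breakdown, fell from 14.02 and 22.04 to between 2.34 and 3.35 FPKM. All 4 of these enzymes lay below the normal diet range in every high-fat library, as the rule that named them required. Lcn8, Igsf21, Cox8b, Pde4c and Lypd6, named by the same rule, had log2 changes of -2.97 ± 0.31, -2.65 ± 0.32, -2.61 ± 0.21, -1.87 ± 0.14 and -1.91 ± 0.15. Pde4c degrades cyclic AMP, and Cox8b is a muscle-type subunit of cytochrome oxidase. Cthrc1, a secreted protein induced in activated fibroblasts, also fell, from 7.54 and 19.0 FPKM to between 0.112 and 2.51 (log2 change -2.55 ± 0.30, adjusted p = 0.0109).

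Cyp2e1 is strongly expressed in hepatocytes, so the hepatocyte list was set beside it. Alb measured 5.39 and 29.3 FPKM in the normal diet libraries, 6.01 and 13.7 in the non-tumour libraries and 26.6 and 19.4 in the tumour libraries, and the groups overlapped (Alb was named as the standard marker after its values were seen). Of 20 hepatocyte genes tested, 3 fell, namely Cyp2e1, Cyp3a11 and Trf (15%, beside 4.17% of all genes), and 0 rose. The list had 4 genes below the range (20%, beside 14.6% of all genes) and a median of -0.49. Single libraries turned this list's direction: without the 37-degree normal diet library 5 genes fell, 19 lay below the range and the median was -1.48, and without the 6-degree one 1 fell, 10 lay above the range and the median was 0.69. The median was 0.05 without the 6-degree tumour library, 6 genes fell without the 37-degree tumour library, and 1 fell without the 6-degree non-tumour library. Its summed level was 363 and 798 FPKM in normal diet, 229 and 295 in non-tumour and 388 and 318 in tumour libraries. Trf, the iron carrier transferrin, was at 266 and 293 FPKM in the normal diet libraries, 164 and 130.3 in the non-tumour libraries and 191 and 173 in the tumour libraries, far above Alb in each library, and fell by 0.77 ± 0.11 (SE, log2). The part that hepatocyte RNA has in the falls of Cyp2e1, Inmt, Ass1 and Cdo1 was not tested.

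Genes of cell division fell together. Of 32 cell cycle genes tested, 26 fell (81.25%, beside 4.17% of all genes) and 2 rose (6.25%, beside 6.57%). Below both normal diet libraries in all 4 high-fat libraries lay 28 (87.5%, beside 14.6%). The median change was -1.57, beside 0.02 for all genes. The mitotic cyclin Ccnb2 measured 26.0 and 44.7 FPKM in the normal diet libraries, 2.203 and 6.67 in the non-tumour libraries and 3.71 and 11.2 in the tumour libraries (log2 change -2.52 ± 0.16, adjusted p = 0.00447). Its partner in the same role, Ccnb1, went from 17.4 and 27.4 FPKM in normal diet to 1.29 and 3.99 in the non-tumour and 2.52 and 6.76 in the tumour region. Cdc20, which activates the anaphase-promoting complex, measured 29.8 and 46.7 FPKM in the normal diet libraries, 1.93 and 7.28 in the non-tumour libraries and 3.10 and 13.8 in the tumour libraries (-2.63 ± 0.25, adjusted p = 0.00687). In each of these 3 genes the lowest values were those of the 37-degree high-fat libraries and the highest of the 6 was the 6-degree normal diet library. In sorted bulk libraries, fewer dividing cells and less of these transcripts per cell cannot be told apart. The survivin gene Birc5 of the chromosome passenger complex and the mitotic kinase Plk1 changed by -2.45 ± 0.22 and -2.37 ± 0.27. Of genes outside the list that were among the most lowered of all, Prc1, which bundles spindle microtubules, and Cdca3, which promotes entry into mitosis, changed by -2.58 ± 0.20 and -2.66 ± 0.18. DNA synthesis genes fell too, among them Rrm2, a subunit of ribonucleotide reductase (-2.49 ± 0.21), and Top2a, the topoisomerase that untangles replicated DNA (14.5 and 19.3 FPKM against 1.23 to 6.82; log2 change -2.24 ± 0.23). Mki67, the proliferation marker, was low in all libraries, at 3.94 and 4.90 FPKM in normal diet and 0.242 to 2.34 in high-fat cells.

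The exceptions were cyclins of the first growth phase. Ccnd1 rose from 8.31 and 14.9 FPKM to 18.5 and 22.6 in the non-tumour and 26.0 and 29.4 in the tumour region (1.03 ± 0.15, adjusted p = 0.016), and Ccnd2 rose by 0.64 ± 0.11. Among genes of nuclear structure from the senescence list, Lmnb1, which encodes a lamin of the nuclear envelope, fell from 5.44 and 3.75 to between 0.687 and 1.37 FPKM, and Hmgb2, a chromatin protein of dividing cells, fell by 1.16 ± 0.13. Of the 29 tested genes of that list, 2 rose (6.9%, beside 6.57% of all genes) and 3 fell (10.3%, beside 4.17%). Above the range lay 2 (6.9%, beside 15.5%) and below it 3 (10.3%, beside 14.6%), and the median was 0.02. The median of the cell cycle list was -1.77 in the non-tumour and -1.48 in the tumour region, each against the same normal diet libraries. Leaving out the 37-degree normal diet library left 15 of the cell cycle genes called as lower, and leaving out a non-tumour library left 17 (6 degrees) or 18 (37 degrees), while 24 to 27 remained in the other cases. Without the temperature term in the fit 1 of the genes was called lower, while the range, which uses no fit, is not affected.

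The start sites of these genes were read from the RefSeq promoter table (GRCm38.p6), which holds 250 bases before and 50 after each start, and 12 motifs were searched on both strands. Described here are the CCAAT box (CCAAT, bound by the factor NF-Y) and the cell cycle homology region (TTTGAA, bound by the DREAM and B-MYB complexes), which are known for this list. Of the 28 members below the range, 23 had an entry: 19 (82.6%) held the CCAAT letters, compared with 41.1% of 27025 genes, and 11 (47.8%) held TTTGAA, compared with 20.2%. The GC box (GGGCGG) was as frequent, in 19 (82.6%) compared with 38.2% of all genes. All 3 other members of the list with an entry held CCAAT and the GC box, and 0 of them held TTTGAA. The shares describe the list and say nothing of what changed in these cells. The stretches below run 5′ to 3′ on the gene's strand and end at the base before the start; capitals mark CCAAT and TTTGAA, read as printed or as their reverse complement.
Ccnb2, chr9:70421555-70421746, minus strand: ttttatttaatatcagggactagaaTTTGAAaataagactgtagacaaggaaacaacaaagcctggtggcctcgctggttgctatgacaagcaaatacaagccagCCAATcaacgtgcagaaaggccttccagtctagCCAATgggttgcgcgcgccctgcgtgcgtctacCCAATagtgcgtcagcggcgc
Cdc20, chr4:118437344-118437421, minus strand: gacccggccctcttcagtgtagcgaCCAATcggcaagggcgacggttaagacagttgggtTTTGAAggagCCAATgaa
Top2a, chr11:99024190-99024389, minus strand: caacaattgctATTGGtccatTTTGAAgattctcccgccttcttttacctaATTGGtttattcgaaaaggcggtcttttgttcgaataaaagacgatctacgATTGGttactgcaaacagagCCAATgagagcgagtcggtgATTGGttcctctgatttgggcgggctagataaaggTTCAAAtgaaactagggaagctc
Each of the 3 stretches holds more than 1 CCAAT box and at least 1 TTTGAA run. In Ccnb2 the TTTGAA run lies upstream of all its CCAAT boxes, and in Cdc20 it lies between them.

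Chaperones of the endoplasmic reticulum rose. Of 27 genes of the unfolded protein response, 8 rose (29.6%, beside 6.57% of all genes) and 0 fell. Above the normal diet range lay 20 (74.1%, beside 15.5% of all genes), and the median was 0.37. Hspa5, the master chaperone BiP, measured 428 and 433 FPKM in the normal diet libraries, 951 and 829 in the non-tumour libraries and 1215 and 768 in the tumour libraries (log2 change 1.10 ± 0.15, adjusted p = 0.0138), and the 37-degree tumour library was the highest. The secreted stress factor Manf went from 35.3 and 36.2 FPKM to 58.1 to 72.3, and Creld2, a disulfide isomerase-like protein of the same compartment, from 44.6 and 46.1 to 70.5 to 80.9. Their log2 changes were 0.83 ± 0.09 and 0.74 ± 0.08. Calr, Hyou1, Sdf2l1, Pdia6 and Dnajb11, which fold or hold secretory proteins, rose by 0.62 ± 0.08, 0.81 ± 0.16, 0.58 ± 0.07, 0.53 ± 0.08 and 0.49 ± 0.07, with adjusted p between 0.0117 and 0.0387. The 2 normal diet libraries lay within a few percent of each other for Hspa5, Calr and Manf, and every high-fat value was higher. The number of raised members was 1 without the 37-degree normal diet library, 3 without the 6-degree one, and 4 or 2 without the 37- or 6-degree non-tumour library.

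The promoters of several such chaperones are known to carry a composite stress element, CCAAT followed after 9 bases by CCACG, through which ATF6 and NF-Y are known to act. It was present in 7 of the 16 above-range members with an entry (43.8%), in 1 of 9 other members (11.1%) and in 37 of 27025 genes (0.137%). The windows of 3 raised chaperones that hold it are shown, 25 bases to either side, with the element in capitals.
Hspa5, chr2:34772000-34772068, plus strand: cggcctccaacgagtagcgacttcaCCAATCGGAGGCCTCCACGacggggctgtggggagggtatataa
Creld2, chr15:88819495-88819563, plus strand: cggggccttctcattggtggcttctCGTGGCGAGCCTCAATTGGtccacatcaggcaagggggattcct
Pdia6, chr12:17266466-17266534, plus strand: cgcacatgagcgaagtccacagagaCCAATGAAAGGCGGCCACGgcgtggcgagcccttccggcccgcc
In Creld2 the element is on the opposite strand, so its capitals read as the reverse complement. The table has no entry for Manf.

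Interferon-stimulated genes were higher in both regions. Of 44 tested, 14 rose (31.8%, beside 6.57% of all genes) and 0 fell. Above the normal diet range lay 32 (72.7%, beside 15.5% of all genes) and below it 1, and the median was 0.50. Oas2, which makes the oligoadenylate that activates RNase L, measured 7.24 and 4.02 FPKM in the normal diet libraries, 26.0 and 16.04 in the non-tumour libraries and 18.4 and 16.3 in the tumour libraries (log2 change 1.62 ± 0.15, adjusted p = 0.00582). Zbp1, a sensor of nucleic acids in the Z conformation, stood at 21.7 and 13.7 FPKM in normal diet and at 43.9 to 45.5 in the 4 high-fat libraries (1.34 ± 0.16). Irf7, the transcription factor that amplifies type I interferon, measured 76.0 and 66.3 FPKM in the normal diet libraries, 136 and 138 in the non-tumour libraries and 161 and 132 in the tumour libraries and rose by 0.98 ± 0.09 (adjusted p = 0.00597). The diets did not overlap for any of these 3 genes. Isg20, Gbp4 and Ifi47 rose by 0.91, 0.96 and 0.93. The 37-degree tumour library stood apart for the chemokine Cxcl10, which did not pass (named after its values were seen), at 888 FPKM there and 111 to 130 in the other high-fat libraries. Leaving that library out left 11 raised members. The counts were 4 and 5 without the 37- and 6-degree normal diet libraries, 8 and 5 without the non-tumour ones, and 23 without the 6-degree tumour library.

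Genes of class I antigen presentation were also higher. Of 22 genes, 8 rose (36.4%, beside 6.57% of all genes) and 0 fell. Above the range lay 15 (68.2%, beside 15.5% of all genes), with a median of 0.31. B2m, the shared light chain, measured 5448 and 4885 FPKM in the normal diet libraries, 8057 and 7220.4 in the non-tumour libraries and 9527 and 7332 in the tumour libraries (0.63 ± 0.10, adjusted p = 0.024), and the non-classical heavy chain H2-T23 measured 338 and 347 FPKM in the normal diet libraries, 728 and 722 in the non-tumour libraries and 680.1 and 603 in the tumour libraries (0.99 ± 0.08, adjusted p = 0.0047). H2-K1 and H2-D1 rose by 0.57 ± 0.09 and 0.61 ± 0.10, and Tapbp, which loads peptides, by 0.39 ± 0.07. The H2 heavy chains are close copies, so their shares of the fragments are uncertain. Under quantile normalization 2 members passed, the median was 0.16 and 8 lay above the range. Without a single library 1 (either normal diet library or the 6-degree non-tumour library), 3 (either 37-degree high-fat library) or 6 (the 6-degree tumour library) passed.

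For interferon genes the core of the stimulated response element (GAAA, any 2 bases, GAAA) was searched. It was found in 14 of 26 above-range members with an entry (53.8%) and in 6 of 9 other members (66.7%), compared with 3.99% of all genes, so the members above the range held it no more often than those of the list that were not. Of the raised genes, Gbp2 and Igtp, GTPases that attack vacuoles of intracellular pathogens, hold it close to the start, as their windows show with the core in capitals.
Gbp2, chr3:142620579-142620638, plus strand: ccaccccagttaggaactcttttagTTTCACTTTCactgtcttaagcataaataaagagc
Igtp, chr11:58199497-58199555, plus strand: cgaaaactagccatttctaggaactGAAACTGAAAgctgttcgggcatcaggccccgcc
Gbp2 rose by 0.65 ± 0.13 and Igtp by 0.48 ± 0.09 (SE, log2), and the core in Gbp2 is read on the opposite strand.

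Soluble complement and lectin genes changed in both directions. Of 27 complement and coagulation genes, 13 rose (48.1%, beside 6.57% of all genes) and 2 fell (7.41%, beside 4.17%). Above the range lay 13 (48.1%, beside 15.5%) and below it 3 (11.1%, beside 14.6%), and the median was 0.69. C6, a component of the membrane attack complex, measured 39.9 and 33.2 FPKM in the normal diet libraries, 188 and 148 in the non-tumour libraries and 179.7 and 140.1 in the tumour libraries and rose by 2.13 ± 0.07 (adjusted p = 0.00207). Factor B of the alternative pathway (Cfb) measured 112 and 87.1 FPKM in the normal diet libraries, 337 and 261 in the non-tumour libraries and 234 and 219 in the tumour libraries (1.38 ± 0.09, adjusted p = 0.00447). The proteases C1ra, C1s1 and C2 and the thioester protein C4b, all of the classical pathway, rose by 0.71, 0.75, 1.10 and 1.08. Serping1, the inhibitor of the C1 proteases, rose as well, from 1408 and 1199 to between 2626 and 3426 FPKM (1.20 ± 0.09). Activating proteases and their inhibitor thus changed in the same direction.

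Stellate cells are a main source of liver lectins, and these parted. The collectins Colec11 and Colec10, which start the lectin pathway, rose: Colec11 measured 2313 and 2252 FPKM in the normal diet libraries, 5563 and 4096 in the non-tumour libraries and 5257 and 3992 in the tumour libraries (1.03 ± 0.12), and Colec10 rose by 0.90 ± 0.09. Ficolin A (Fcna), which binds sugars and acts through the same proteases, measured 3140.4 and 3217 FPKM in the normal diet libraries, 1003 and 586 in the non-tumour libraries and 739 and 471 in the tumour libraries, a 4.54-fold lower mean (-2.24 ± 0.18, adjusted p = 0.00457). Its lowest value in each high-fat region was in the 6-degree library. The scavenger collectin Colec12 fell by 0.91 ± 0.20. Without the 37-degree normal diet library 5 genes of the list rose and 2 fell, and without the other libraries 9 to 16 rose and 1 or 2 fell.

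**Figure D3:**
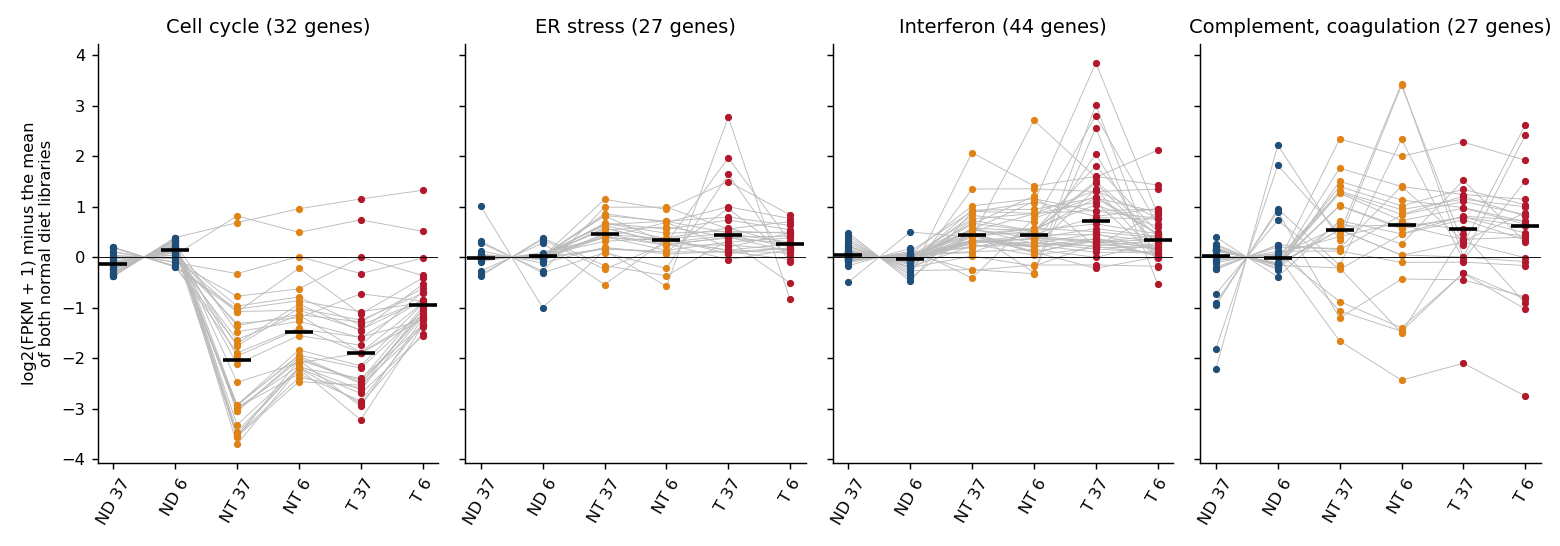
Change of each member of 4 gene lists in each library, as log2(FPKM + 1) minus the mean of the 2 normal diet libraries (vertical axis); grey lines join a gene's values and black dashes are medians. ND is normal diet, NT the non-tumour and T the tumour region, each at 37 or 6 °C; all but a few cell cycle genes lie below 0 in the 4 high-fat libraries, and most stress and interferon genes lie above 0.

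Part of the chemokine and NF-kB genes rose, with higher medians in the tumour region, a difference between regions that was not tested here. Of 25 chemokine genes, 11 rose (44%, beside 6.57% of all genes) and 1, Ackr4, fell (4%, beside 4.17%). Above the range lay 7 (28%, beside 15.5%) and below it 1 (4%, beside 14.6%), so some raised genes overlapped normal diet. The median was 0.48 in the non-tumour and 1.26 in the tumour region against the same controls. Ccl2, which draws monocytes, measured 196 and 98.0 FPKM in the normal diet libraries, 472 and 411 in the non-tumour libraries and 818 and 394 in the tumour libraries (1.84 ± 0.19, adjusted p = 0.00793). Ccl19, a ligand for CCR7 on dendritic and T cells, rose by 1.004 ± 0.08, and the neutrophil attractants Cxcl5 and Cxcl2 by 1.23 ± 0.13 and 1.73 ± 0.16. Ccl8 reached 51.5 and 32.1 FPKM in the tumour libraries, beside 8.60 and 9.17 in the non-tumour and 6.58 and 1.95 in the normal diet libraries. The atypical receptors, which bind chemokines without signalling through G proteins, changed in opposite directions: Ackr1 measured 9.40 and 14.7 FPKM in the normal diet libraries, 22.02 and 44.7 in the non-tumour libraries and 23.4 and 37.6 in the tumour libraries and rose by 1.30 ± 0.11, and Ackr4, which takes up Ccl19 and related ligands, measured 31.8 and 31.5 FPKM in the normal diet libraries, 4.68 and 12.6 in the non-tumour libraries and 3.83 and 6.26 in the tumour libraries and fell by 2.18 ± 0.26.

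Of 28 NF-kB and inflammation genes, a list that also holds Ccl2, Cxcl2 and Cxcl5, 8 rose (28.6%, beside 6.57% of all genes) and 1 fell (3.57%, beside 4.17%). Above the range lay 15 (53.6%, beside 15.5% of all genes). Tnfaip2, a cytokine-induced gene, rose by 1.41 ± 0.13, Relb, an NF-kB subunit, by 0.58 ± 0.09, and Icam1, an adhesion receptor for leukocytes, by 0.99 ± 0.20. Il33, the nuclear alarmin of stromal cells, went the other way, from 36.1 and 21.6 FPKM to 15.02 to 15.7 (-0.82 ± 0.18, adjusted p = 0.046), and its 4 high-fat values lay within 1 FPKM of each other. Ccl2 and Il33 both had the higher normal diet value at 37 degrees. Without single libraries the chemokine list gave 4 to 14 raised genes, with 4 and 5 when the 37- or 6-degree normal diet library was out, and the NF-kB list 2 to 18, with 2, 3 and 5 when the 37-degree normal diet, the 6-degree normal diet or the 6-degree non-tumour library was out and 18 when the 6-degree tumour library was out. Macrophage markers were higher in the tumour libraries and are given below, and their part in the chemokine values was not tested.

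Fibrillar collagens are the main product of myofibroblasts. Of 16 genes of fibrillar collagens and their processing, 2 rose (12.5%, beside 6.57% of all genes) and 0 fell, with a median of 0.14. Col1a1 measured 293 and 389 FPKM in the normal diet libraries, 216 and 165 in the non-tumour libraries and 299 and 389 in the tumour libraries, so that the groups overlapped (log2 change -0.41 ± 0.18, adjusted p = 0.226). Col3a1, named after its values were seen, was likewise not called (-0.18 ± 0.16, adjusted p = 0.523). The fibrillar list gave 0 raised genes in limma without the 37-degree normal diet library (2 before adjustment) and 1 without the 6-degree normal diet or either non-tumour library. The genes that rose were Col5a1, a regulator of fibril width (0.52 ± 0.09), and P4ha1, a prolyl hydroxylase (0.79 ± 0.09). Of 11 other collagens 4 rose (36.4%, beside 6.57% of all genes). Among them were Col14a1, which coats fibrils (390.3 and 350.4 FPKM against 706 to 955, log2 change 1.06 ± 0.12), and Col18a1, the basement membrane collagen that yields endostatin (1.59 ± 0.27). The basement membrane chains Col4a1 and Col4a2 rose by 0.68 ± 0.13 and 0.70 ± 0.13. In this list of other collagens 0 genes were called by limma without the 37- or the 6-degree normal diet library (5 and 4 higher at p under 0.05 before adjustment), 1 without the 37-degree and 2 without the 6-degree non-tumour library, and 2 under quantile normalization.

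Glycoproteins, proteases and small proteoglycans of the matrix changed in both directions. Of the 39 glycoprotein genes 25.6% rose and 10.3% fell, beside 6.57% and 4.17% of all genes. Fibronectin (Fn1) measured 78.8 and 61.2 FPKM in the normal diet libraries, 271 and 221 in the non-tumour libraries and 232 and 273 in the tumour libraries and rose by 1.82 ± 0.14 (adjusted p = 0.00457). Thbs1, which activates latent TGF-beta, rose by 2.25 ± 0.30, and tenascin C (Tnc) by 1.27 ± 0.14. Osteopontin (Spp1), which bile duct cells and macrophages also make, fell, from 37.2 and 59.5 FPKM to 4.84 and 3.79 in the non-tumour and 22.8 and 22.5 in the tumour libraries. In all, 10 of 39 glycoprotein genes rose and 4 fell; 5 rose when either normal diet library was left out and 7 to 12 without the others, while 2 to 5 fell. Among inhibitors of metalloproteinases, Timp3 measured 110.2 and 109 FPKM in the normal diet libraries, 396 and 313 in the non-tumour libraries and 555 and 370.2 in the tumour libraries (1.85 ± 0.13, adjusted p = 0.00457) and Timp1 rose by 0.78 ± 0.07. The gelatinase Mmp2 measured 114 and 99.6 FPKM in the normal diet libraries, 42.5 and 32.3 in the non-tumour libraries and 46.9 and 34.5 in the tumour libraries and fell by 1.44 ± 0.09 (adjusted p = 0.00447), and Mmp3 fell by 1.41 ± 0.22. These 2 inhibitors rose and these 2 proteases fell, with no overlap between diets for any of the 4 genes. They come from a list of 28 crosslinking and protease genes that was called in both directions, with a median of 0.01. Of that list 5 rose (17.9%, beside 6.57% of all genes) and 5 fell (17.9%, beside 4.17%). Above the range lay 6 (21.4%, beside 15.5%) and below it 7 (25%, beside 14.6%). Loxl1, which crosslinks elastin, fell by 1.13 ± 0.09, and of the small leucine-rich proteoglycans osteoglycin (Ogn) fell from 20.8 and 19.3 to between 1.88 and 5.17 FPKM (-2.32 ± 0.12) and lumican (Lum) fell by 0.49 ± 0.07. Of 12 proteoglycan genes tested, 1 rose (8.33%, beside 6.57% of all genes) and 2 fell (16.7%, beside 4.17%). Above the range lay 3 (25%, beside 15.5%) and below it 2 (16.7%, beside 14.6%), and the median was 0.09.

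Part of the contractile genes rose. Of 24 tested, 10 rose (41.7%, beside 6.57% of all genes), 0 fell and 11 lay above the range (45.8%, beside 15.5%). The median was 0.24 in the non-tumour and 0.56 in the tumour region. Tropomyosin 1 (Tpm1) measured 226 and 220 FPKM in the normal diet libraries, 558 and 431 in the non-tumour libraries and 730.2 and 599 in the tumour libraries (1.35 ± 0.09, adjusted p = 0.00457), and transgelin (Tagln) measured 349.9 and 215 FPKM in the normal diet libraries, 604 and 503 in the non-tumour libraries and 857 and 803 in the tumour libraries (1.30 ± 0.14, adjusted p = 0.00793). Calponin 2 (Cnn2), found in many motile cells, was nearly level within each diet, at 129 and 131 FPKM against 244 to 273. Calponin 1 (Cnn1), the smooth muscle form, was under 1 FPKM outside the tumour region, where it reached 3.24 and 5.11. Acta2, the classic mark of activated stellate cells, measured 107 and 112 FPKM in the normal diet libraries, 122 and 94.0 in the non-tumour libraries and 266 and 337 in the tumour libraries; its groups overlapped, and although it passed (0.71 ± 0.15, adjusted p = 0.0451) its change was -0.030 without the tumour libraries. The count of raised genes was 3 without either normal diet library, 4 without either non-tumour library, 6 without the 6-degree tumour library and 4 under quantile normalization. Vascular smooth muscle markers, which share several of these genes, summed to 809.6 and 641 FPKM in normal diet, 1132 and 897 in non-tumour and 1564 and 1545 in tumour libraries, and their part in the contractile values was not tested.

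Signals that stellate cells send to their neighbours changed in part. Tgfb2, a ligand of the TGF-beta receptors, measured 4.12 and 2.78 FPKM in the normal diet libraries, 17.2 and 9.59 in the non-tumour libraries and 20.9 and 21.5 in the tumour libraries (1.996 ± 0.18, adjusted p = 0.00623), and Tgfb3 rose by 0.68 ± 0.14. Of 24 TGF-beta and activin genes 3 rose (12.5%, beside 6.57% of all genes) and 3 fell (12.5%, beside 4.17%). Without the 37-degree normal diet library these counts were 0 (3 before adjustment, in limma) and 1, without the 6-degree normal diet or the 6-degree non-tumour library 1 and 1, and without the 37-degree non-tumour library 1 and 2. In the BMP list, also with 3 raised and 3 lowered genes of 22, the ligand Bmp4 rose by 0.64 ± 0.14, the ligand Gdf10 fell by 0.83 ± 0.07 and the ligand Bmp10 fell by 0.48 ± 0.09, and Bambi, a decoy receptor that dampens TGF-beta signals, fell from 83.4 and 51.9 FPKM to between 26.3 and 34.8 (-1.07 ± 0.14, adjusted p = 0.0138). The diets overlapped for Bmp10 and did not for Bambi. Raised and lowered genes each made up 13.6% of the BMP list, beside 6.57% and 4.17% of all genes. The BMP list gave 1 raised and 1 lowered gene without the 37-degree normal diet library, 1 and 2 without the 6-degree one or either non-tumour library, 7 and 3 without the 6-degree tumour library, and 1 and 3 under quantile normalization. Wnt genes that passed all fell, 4 of 14 (28.6%, beside 4.17% of all genes). R-spondin 3 (Rspo3), which strengthens Wnt signals in hepatocytes around the central vein, measured 348 and 324 FPKM in the normal diet libraries, 252 and 195 in the non-tumour libraries and 212 and 151 in the tumour libraries (-0.75 ± 0.10, adjusted p = 0.0137). Wnt4, a ligand, fell by 0.41 ± 0.08 with overlapping groups, Nkd1, a feedback inhibitor of the pathway, fell by 0.62 ± 0.08, and the nuclear effector Tcf7 fell by 1.59 ± 0.20. The median of the Wnt list was 0.05. Without the 6-degree normal diet library 0 of its genes passed in limma (before adjustment, 1 higher and 4 lower had a p under 0.05), 1 passed without the 37-degree one or the 6-degree non-tumour library, and 2 without the 37-degree non-tumour library. In the Notch list 2 of 14 genes rose (14.3%, beside 6.57% of all genes) and 1 fell (7.14%, beside 4.17%). The target Heyl rose by 0.79 ± 0.10 and the target Hes1 fell by 1.10 ± 0.12. Above the range lay 3 Notch genes (21.4%, beside 15.5% of all genes) and below it 0 (beside 14.6%). The diets therefore overlapped for Hes1, whose 6-degree minus 37-degree difference was -1.06 on the log2 scale. The median of the Notch list was 0.24, with 0.45 without the 37-degree and 0.04 without the 6-degree normal diet library.

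Among hormone and growth factor genes, Igfbp3, a carrier of insulin-like growth factors, measured 354 and 318 FPKM in the normal diet libraries, 1643 and 963 in the non-tumour libraries and 1633 and 1207 in the tumour libraries, a 4.05-fold higher mean (1.98 ± 0.14, adjusted p = 0.00457). Of 19 insulin-like growth factor and hormone genes, 6 rose (31.6%, beside 6.57% of all genes) and 1 fell (5.26%, beside 4.17%). The glucagon receptor (Gcgr) and the growth hormone receptor (Ghr) rose by 0.96 ± 0.08 and 0.52 ± 0.09. Fgfr1, a receptor of fibroblast growth factors, fell by 0.93 ± 0.12, and Lpar1, the receptor of lysophosphatidic acid that drives stellate cell contraction and migration, fell from 33.0 and 34.8 FPKM to between 9.52 and 16.9 (-1.35 ± 0.19, adjusted p = 0.0152). Of 25 platelet-derived, vascular endothelial and fibroblast growth factor genes, 4 rose (16%, beside 6.57%) and 3 fell (12%, beside 4.17%). Above the range lay 6 (24%, beside 15.5%) and below it 2 (8%, beside 14.6%). In the list of ion channels and G protein-coupled receptors, 8 of 33 genes rose and 2 fell, with a median of -0.04; 5 rose without the 37-degree normal diet library, and the lowered genes numbered 0 (5 before adjustment) without the 6-degree non-tumour library and 1 without the 37-degree normal diet, the 37-degree non-tumour or either tumour library. The raised genes included the prostaglandin E receptor Ptger3, from 2.76 and 2.67 to between 10.5 and 17.6 FPKM (2.04 ± 0.16, adjusted p = 0.00457), the nucleotide-sugar receptor P2ry14 (0.83 ± 0.08) and the accessory protein Ramp1, which turns the calcitonin-like receptor into a receptor for the neuropeptide CGRP (0.96 ± 0.09). Raised and lowered genes made up 24.2% and 6.06% of the channel and receptor list, beside 6.57% and 4.17% of all genes. Within the adhesion and guidance list, 12 of 38 genes rose (31.6%, beside 6.57% of all genes) and 2 fell (5.26%, beside 4.17%). Above the range lay 10 (26.3%, beside 15.5%) and below it 5 (13.2%, beside 14.6%), so some raised genes overlapped normal diet. Epha3 and Cdh2 rose by 1.41 ± 0.13 and 0.68 ± 0.09, and the integrin subunit Itga8, a stellate cell surface protein, fell by 0.98 ± 0.09.

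Metabolic genes were called in both directions. Sod3, the extracellular superoxide dismutase, measured 1890.1 and 1610.4 FPKM in the normal diet libraries, 6771 and 4998 in the non-tumour libraries and 5821 and 4813 in the tumour libraries, a 3.20-fold higher mean (1.67 ± 0.10, adjusted p = 0.00433), and Gpx1, a glutathione peroxidase, rose by 0.72 ± 0.08. Of the NRF2 list, 4 intracellular detoxifying enzymes fell. Gsta4, which conjugates lipid peroxidation products, went from 81.2 and 77.7 FPKM to between 21.8 and 44.4 (-1.31 ± 0.14). The quinone reductase Nqo1 had a log2 change of -1.06 ± 0.14. Gstm1 and Gstm2, close copies between which fragments are divided uncertainly, changed by -0.55 ± 0.11 and -0.37 ± 0.07. In all, 10 of the 33 genes of that list lay below the range (30.3%, beside 14.6% of all genes), and its median was -0.12. Of the 33, 2 rose (6.06%, beside 6.57% of all genes) and 4 fell (12.1%, beside 4.17%). The counts were 1 and 1 without the 37-degree and 2 and 1 without the 6-degree normal diet library, 4 and 2 without the 37-degree and 2 and 2 without the 6-degree non-tumour library, 4 and 3 without the 6-degree tumour library, and 2 and 7 under quantile normalization. Dgat2, which completes triglyceride synthesis, fell from 10.9 and 11.5 to between 2.01 and 3.08 FPKM (-1.76 ± 0.15, adjusted p = 0.005). Of 33 glycolysis and hypoxia genes, 10 rose (30.3%, beside 6.57% of all genes) and 0 fell, with 15 above the range (45.5%, beside 15.5%). Examples are the glucose transporter Slc2a1 (0.86 ± 0.09), lactate dehydrogenase A (Ldha, 0.60 ± 0.08), the vasodilator peptide adrenomedullin (Adm, 0.996 ± 0.09) and Ankrd37 (1.19 ± 0.18). This count fell to 1, 2, 3, 3 and 6 without the 37- and 6-degree normal diet, the 37- and 6-degree non-tumour and the 37-degree tumour library.

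Of 17 circadian clock genes, 2 rose (11.8%, beside 6.57% of all genes) and 3 fell (17.6%, beside 4.17%), with 6 below the range (35.3%, beside 14.6%). The list's median was -0.01 at 37 degrees and -0.57 at 6 degrees. Dbp, an output factor, fell from 7.27 and 8.53 to between 1.05 and 2.36 FPKM (-1.71 ± 0.16, adjusted p = 0.00623). The output factor Tef (-1.16 ± 0.15) and the repressor Nr1d2 (-0.64 ± 0.13) fell too, while the activator Arntl rose by 0.57 ± 0.11. No source used here gives the time of day at which the livers were taken, and its part was not tested. Housekeeping pathways gave no calls in limma, beside 10.7% of all genes called. Of them, 0 of 37 oxidative phosphorylation, 0 of 38 ribosomal protein and 0 of 35 sterol and fatty acid synthesis genes passed. Below the range lay 9 (24.3%), 0 and 9 (25.7%) genes of these lists, beside 14.6% of all genes. Above it lay 3 (8.11%), 4 (10.5%) and 3 (8.57%), beside 15.5%. At an unadjusted p under 0.05 the counts were 2 higher and 4 lower, 4 higher and 0 lower, and 3 higher and 7 lower. Quantile normalization called 3 oxidative phosphorylation, 1 ribosomal protein and 1 sterol and fatty acid synthesis gene lower. Of the last list, 2 genes were also called lower without the tumour libraries, 1 was called higher and 2 lower without the 37-degree tumour library, 1 lower without the 6-degree one, 1 lower under median-ratio rescaling and 1 higher without the intensity trend.

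**Figure D4:**
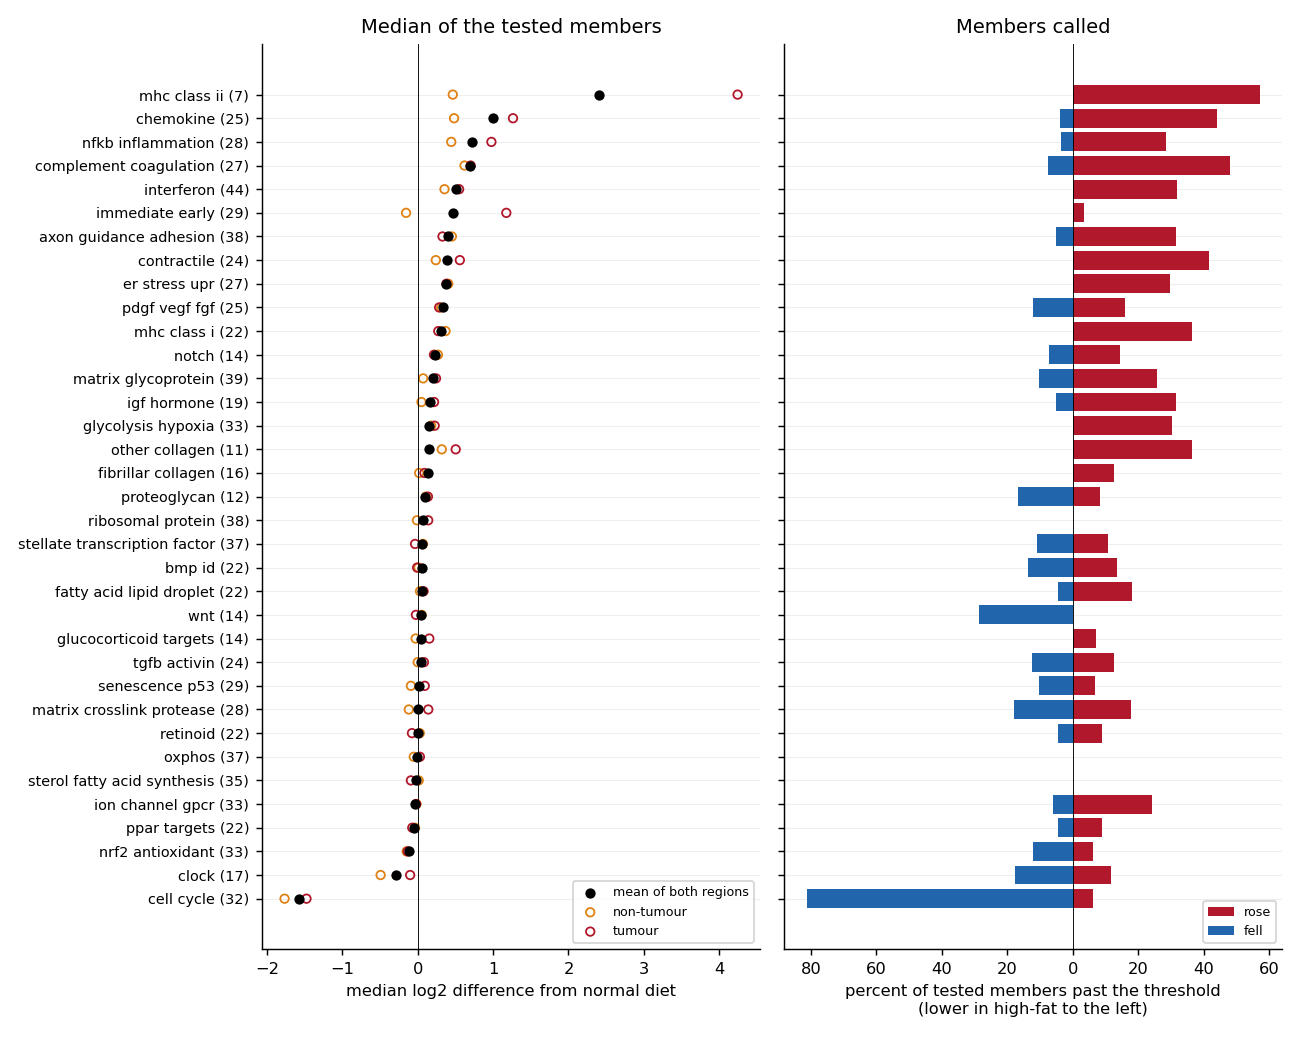
Left, median log2 difference from normal diet over the tested members of each of 35 pathway lists (number of members in parentheses), for the mean of both regions and for each region. Right, percent of the members that rose (red) or fell (blue); the cell cycle list stands at the bottom, with 26 of 32 members lower.

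Genes that define stellate cells were called in both directions. Of 24 stellate markers, 5 rose (20.8%, beside 6.57% of all genes), 4 fell (16.7%, beside 4.17%) and the median was -0.03. Above the range lay 7 (29.2%, beside 15.5%) and below it 3 (12.5%, beside 14.6%), so not every lowered marker was outside it. The counts were 1 raised and 2 lowered without the 37-degree and 3 and 1 without the 6-degree normal diet library, 4 and 2 without either non-tumour library, 5 and 2 without the 37-degree tumour library, and 4 and 7 under quantile normalization. Lrat, the enzyme that makes retinyl esters, measured 494 and 335 FPKM in the normal diet libraries, 538 and 373 in the non-tumour libraries and 483 and 361 in the tumour libraries (adjusted p = 0.517), and desmin (Des) measured 135 and 111 FPKM in the normal diet libraries, 121 and 93.8 in the non-tumour libraries and 123 and 105 in the tumour libraries (adjusted p = 0.26). Both overlapped between diets and were named after their values were seen. Rgs5, a pericyte gene, measured 143 and 122 FPKM in the normal diet libraries, 352 and 235 in the non-tumour libraries and 315 and 231 in the tumour libraries and rose by 1.07 ± 0.09 (adjusted p = 0.00571). The nerve growth factor receptor Ngfr rose by 0.72 ± 0.09. The transcription factors Lhx2, which restrains activation, and Hand2 fell, with log2 changes of -0.42 ± 0.07 and -0.45 ± 0.09, and Hhip, which binds and blocks Hedgehog ligands, fell from 29.9 and 29.1 to between 7.47 and 16.9 FPKM (-1.39 ± 0.18). In a wider list of mesenchymal transcription factors, Prrx1 rose from 0.767 and 0.794 FPKM to between 2.02 and 4.43, Foxs1 rose by 1.14 ± 0.22, and Wt1, which marks the mesothelial lineage, fell from 4.54 and 2.94 to between 0.144 and 0.790 FPKM (-1.75 ± 0.16, adjusted p = 0.00639). Of the 37 tested genes of that list, 4 rose (10.8%, beside 6.57% of all genes) and 4 fell (10.8%, beside 4.17%). Above the range lay 6 (16.2%, beside 15.5%) and below it 6 (16.2%, beside 14.6%).

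Cells that the sort was meant to remove left markers that differed between libraries, and several raised genes moved with them. Endothelial genes summed to 513 and 2445 FPKM in the normal diet, 1163 and 5448 in the non-tumour and 1036 and 2866 in the tumour libraries, always higher at 6 degrees. Of 21 genes, 8 rose (38.1%, beside 6.57% of all genes), with a median of 1.55. Above the range lay 1 (4.76%, beside 15.5%), which was Vwf, the clotting factor carrier, named after its values were seen. Pecam1, which encodes the CD31 sorted against, measured 0.900 and 31.4 FPKM in the normal diet libraries, 9.99 and 90.6 in the non-tumour libraries and 10.7 and 53.0 in the tumour libraries. Without the 6-degree non-tumour library 0 endothelial genes passed in limma (before adjustment, 17 higher and 0 lower had a p under 0.05), and without the 6-degree tumour library 20 did; the counts were 1 without the 37-degree normal diet or the 37-degree non-tumour library and 15 without the 6-degree normal diet library. Fabp4, a fatty acid binding protein of capillary endothelium and macrophages, measured 1.63 and 74.5 FPKM in the normal diet libraries, 78.4 and 631 in the non-tumour libraries and 154 and 335 in the tumour libraries, and Esm1, an endothelial proteoglycan, 0.172 and 4.34 FPKM in the normal diet libraries, 5.74 and 31.4 in the non-tumour libraries and 13.7 and 48.8 in the tumour libraries. Both lay above the range (4.002 ± 0.70 and 2.997 ± 0.14) and followed the endothelial sums over temperature. The endothelial adhesion receptor Selp did too, at 0.159 and 1.23 FPKM in the normal diet libraries, 3.86 and 24.4 in the non-tumour libraries and 4.43 and 8.47 in the tumour libraries. The fatty acid carriers Cd36 and Fabp5 passed with overlapping groups, at 0.876, 34.9, 24.8, 243, 25.6 and 124 and 3.40, 27.0, 18.6, 127, 30.6 and 89.0 FPKM in the order normal diet, non-tumour and tumour. The part of endothelial RNA in these genes was not tested.

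Macrophage genes summed to 104 and 760 FPKM in the normal diet, 87.4 and 990 in the non-tumour and 1324 and 3407 in the tumour libraries. Of 20 tested, 5 rose (25%, beside 6.57% of all genes) and 0 lay above the range (beside 15.5%). The median was 0.03 in the non-tumour and 2.60 in the tumour region. The count of raised genes was 1, 2 and 16 without the 37-degree normal diet, the 6-degree non-tumour and the 6-degree tumour library, 9 without the 37-degree tumour library, and 0 in limma without the 6-degree normal diet library (8 higher and 0 lower before adjustment at a p under 0.05). Ptprc, which encodes CD45, measured 0.397 and 1.75 FPKM in the normal diet libraries, 0.375 and 2.73 in the non-tumour libraries and 5.44 and 16.5 in the tumour libraries. Class II presentation genes had medians of 0.47 and 4.24.

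**Figure D5:**
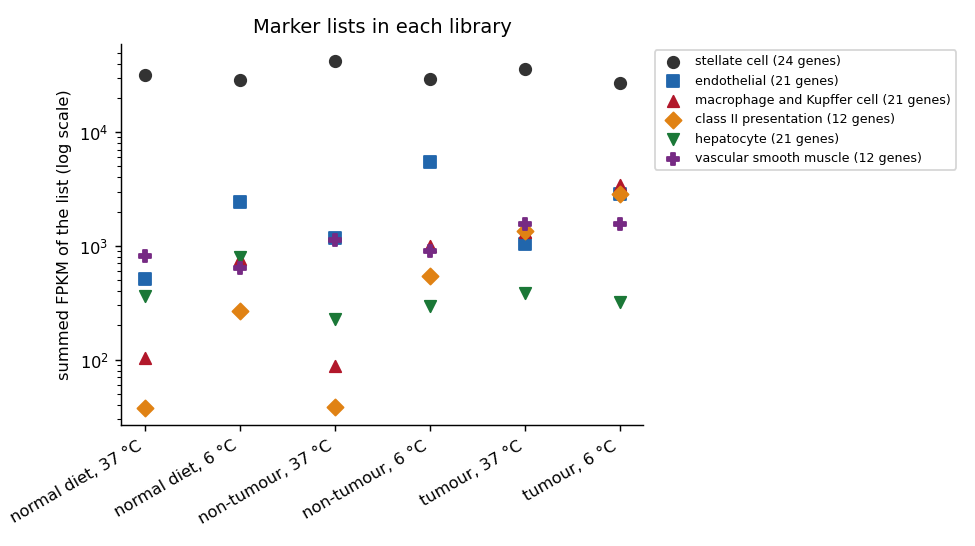
Summed FPKM of 6 marker lists (vertical axis, log scale) in each library (horizontal axis). The stellate list lies above all others in every library, the endothelial list is higher in each 6 °C library than in its 37 °C counterpart, and the macrophage and class II lists are highest in the tumour region.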

How the data were processed

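RNA-seq libraries of sorted stellate cells (6) were analysed, with 1 library for each combination of 3 sources (normal diet, non-tumour region, tumour region) and 2 isolation temperatures. The deposited values are FPKM per gene symbol made by the authors; TopHat2 2.1.1, Bowtie2 and Cuffdiff 2.2.1 and the mouse build mm10 are named in the submitters' processing notes, and no label states their settings. FPKM are not counts, and library depth (17000000 to 23600000 fragments) was estimated from the smallest steps of low values.

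Symbols of small RNAs (1292) were left out and genes averaging 1 FPKM or more kept (11556 genes). Values were set to log2(FPKM + 1), which understates the change of low genes, and fitted with limma 3.58.1 (R 4.3.3) with source and temperature as terms and an intensity trend. The contrast was the mean of both regions minus normal diet, with 2 residual degrees of freedom (5.37 after moderation), and p-values were adjusted by Benjamini-Hochberg over all genes tested. The same code was tested on simulated data. Named genes are the 15 most raised and 15 most lowered genes that pass and lie outside the normal diet range, the 10 with the widest gap in each direction, and, of each list, members that pass, the 4 with the largest changes and members outside the range where few; others are marked in the text. The gene lists and members were chosen with earlier results of these data known. Each region's difference uses the same 2 normal diet libraries. The alternatives were other pseudocounts, filters, scalings and models, and single libraries, regions or temperatures left out.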

Additional observations from a re-analysis of the deposited data

Results flagged for a closer look

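Alb, the hepatocyte product albumin, moved in opposite directions at the isolation temperatures: high-fat minus normal diet was 1.12 on the log2 scale at 37 degrees and -0.81 at 6 degrees, with 5.39, 29.3, 6.01, 13.7, 26.6 and 19.4 FPKM in the order normal diet, non-tumour and tumour. The difference between temperatures was 1.93. Normal diet had 1 library at each temperature and the fit took the regions as replicates, so no conclusion is drawn on this difference.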

How the results depend on the processing

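The 1241 called genes became 653 with no filter on low values, 823 with regions pooled into 1 diet term, 144 without a temperature term and 643 without the non-tumour libraries. With the 37-degree or the 6-degree libraries alone 0 genes were called by limma (before adjustment a p under 0.05 was found for 673 higher and 503 lower genes at 37 degrees and 1064 higher and 893 lower genes at 6 degrees), where 3 libraries leave 1 degree of freedom. Without single libraries the count ran from 265 to 1353, and the count outside the normal diet range from 3946 to 5883, since fewer libraries have to agree. The other settings gave 849 to 1229 calls. Direction was steadier: under quantile normalization 1239 of the 1241 genes had the same sign, 984 were still called and 2717 of the 3472 genes outside the range still were. Of the genes named here, Acta2 changed sign without the tumour libraries (-0.030), Col1a1 (0.014) and Col3a1 (0.017) without the non-tumour libraries, and Lrat under quantile normalization (-0.12). Alb was -0.81 at 6 degrees alone, -0.45 without the tumour libraries, and without single libraries from -0.81 (37-degree normal diet) through -0.37 (37-degree tumour) to 1.12 (6-degree normal diet). The cause was not tested. The counts of list members under each alternative were added after seeing the data. No paired analysis was possible because each group holds 1 library, so that replicate numbers pair nothing; temperature, which the 3 sources share, is already a term of the fit. Depth limits genes near 1 FPKM most.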

Other observations

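Of matrix-associated genes not described above, Adamtsl2, which binds latent TGF-beta binding proteins, measured 130 and 119.7 FPKM in the normal diet libraries, 49.6 and 32.6 in the non-tumour libraries and 71.0 and 41.3 in the tumour libraries (-1.40 ± 0.14, adjusted p = 0.00786). Spon2, a secreted matrix protein, measured 244 and 153 FPKM in the normal diet libraries, 84.9 and 55.0 in the non-tumour libraries and 56.3 and 38.5 in the tumour libraries (-1.76 ± 0.07, adjusted p = 0.00331). The diets did not overlap for either gene.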
